A study of Mus musculus with 6 samples.

Results

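The prostaglandin and leukotriene enzymes described here are 10 genes: Ptgs1, Ptgs2, Ptges, Hpgds, Tbxas1, Alox5, Alox5ap, Lta4h, Ltc4s and Alox15. They were taken as all 18 non-control probes that carry one of these names, out of 56605 non-control probes on an Agilent mouse array, and their levels were compared between 3 sorted cell fractions of mouse oral mucosa. Each fraction had 2 arrays, from independent experiments per the series design; the sources used here do not give how many mice went into a sort. All 6 samples came from BALB/c mice treated 2 times with FITC, a fluorescent contact sensitiser painted on the mucosa, so no unpainted tissue was compared. Fr1 was sorted as CD11c+CD206-. Fr2 was negative for CD11c and CD206 and positive for ADGRE1, a macrophage antigen that the labels give by its antibody name. Fr3 was positive for ADGRE1 and CD206hi. CD11c is an integrin chain of dendritic cells and some macrophages, and CD206 is the mannose receptor. The labels name the tissue sublingual mucosa, while their protocol describes the dorsal side of the tongue, digested for 30 min with collagenase and DNase before the sort.

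Eicosanoids are short-lived lipid signals made from arachidonic acid, which phospholipases release from membranes. The cyclooxygenases COX-1 (Ptgs1) and COX-2 (Ptgs2) turn it into prostaglandin H2, from which terminal synthases make prostaglandin E2, prostaglandin D2 or thromboxane. In the other branch 5-lipoxygenase (Alox5), helped by its activating protein FLAP (Alox5ap), makes leukotriene A4, which passes to leukotriene B4 through Lta4h or to the cysteinyl leukotrienes through Ltc4s. Macrophages, mast cells and granulocytes are known sources of these lipids in mucosal tissue.

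Replicates differed with the T content of a probe, so a few probes are printed here, 5′ to 3′ as on the array, with T in capitals. Hpgds had a probe with 18 T in 60 bases that spans 3529 bases of the genome (mm9, chromosome 6, 65070081 to 65073609, minus strand) and one with 26 T in 60 bases (65080760 to 65080819), of which bases 1 to 30 are shown.
Hpgds A_52_P536796: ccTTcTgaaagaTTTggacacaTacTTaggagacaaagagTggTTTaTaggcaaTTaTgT
Hpgds A_55_P2753026: cTTcTTTTaTTTccTTTccccTaaaTTTTc
The only Ptgs2 probe (chromosome 1, 151954744 to 151954803, plus strand) held 20 T in 60 bases and is shown by bases 1 to 30. The Alox15 probe (chromosome 11, 70159115 to 70159339, minus strand), with 15 T in 60 bases, is shown as a contrast. Its T content is lower than that of the Ptgs2 and Hpgds probes.
Ptgs2 A_51_P254855: TTTTTgaaaagTTTgaagTTagaacTTagg
Alox15 A_51_P252565: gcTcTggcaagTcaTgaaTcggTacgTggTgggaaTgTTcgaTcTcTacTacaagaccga
Ptges had 3 probes designed to the same transcript on the minus strand of chromosome 2, at 30748214 to 30748273 (16 T), at 30747838 to 30747897 (15 T, bases 1 to 30 shown) and at 30744995 to 30745054 (18 T, bases 31 to 60 shown). They are shown because only the last gave signal well above background.
Ptges A_55_P1974189: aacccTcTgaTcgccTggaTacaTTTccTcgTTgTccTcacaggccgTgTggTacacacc
Ptges A_51_P312327: gccacTTacagaTgagcTgTcaagaTTTga
Ptges A_55_P1974193: agTcagccccaaTTaaaTgcTTTccTTTaT
Whether a probe lies in a coding or untranslated part of its exon was not determined here.

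Between 44.6% and 52.4% of spots were well above background on an array, and 0 spots were saturated on each. Fr1 and Fr3 were hybridised on one slide and Fr2 on another, so no difference that involves Fr2 can be told apart from a difference between slides. The Fr3 replicates stood furthest apart, with a median absolute log2 difference of 0.82 over the 20817 genes tested, against 0.72 in Fr1 and 0.59 in Fr2. For probes with at least 40% T the median of replicate 2 minus replicate 1 was −1.39 (log2) in Fr3, −0.89 in Fr1 and 0.01 in Fr2, and for those under 20% T it was 0.69, 0.47 and 0.20. Of the sort markers, Mrc1 (CD206) was dim on both Fr1 arrays, at 3.78 and 2.67 in Fr3, and at 0.64 and 0.33 in Fr2, well above background on both arrays there and at least 6.72-fold above Fr1, although Fr2 was sorted without CD206. Adgre1 was between 4.39 and 5.97 on all 6. Itgax (CD11c) was at 2.77 and 1.20 in Fr2, which had been sorted without its protein, against 2.71 and 2.35 in Fr1.

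All levels are log2 of the processed signal minus the 75th percentile of that array, so a level of 0 is as bright as that percentile and a difference of 1 is a doubling. Levels of different probes cannot be ranked against each other. All 10 genes had a probe well above background on both arrays of some fraction, and 8 were so on all 6 arrays. The exceptions were Ptgs1, dim in Fr1 and Fr2, and Lta4h, dim on the first Fr1 array. Each gene was tested by its brightest such probe with limma. None of the 10 members passed at an adjusted p under 0.05 in the 3 comparisons or in the F-test over the fractions. Their adjusted p-values ran from 0.333 to 0.982 over the 30 differences, and the smallest in the F-test was 0.391. Over all genes 0.0048% passed between Fr1 and Fr3, 0.0048% between Fr2 and Fr3, 0% between Fr1 and Fr2 and 0.0048% in the F-test. The members are therefore described by their levels. In bulk RNA of a sorted fraction, fewer cells that express a gene and less of its RNA per cell cannot be told apart.

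**Figure D1:**
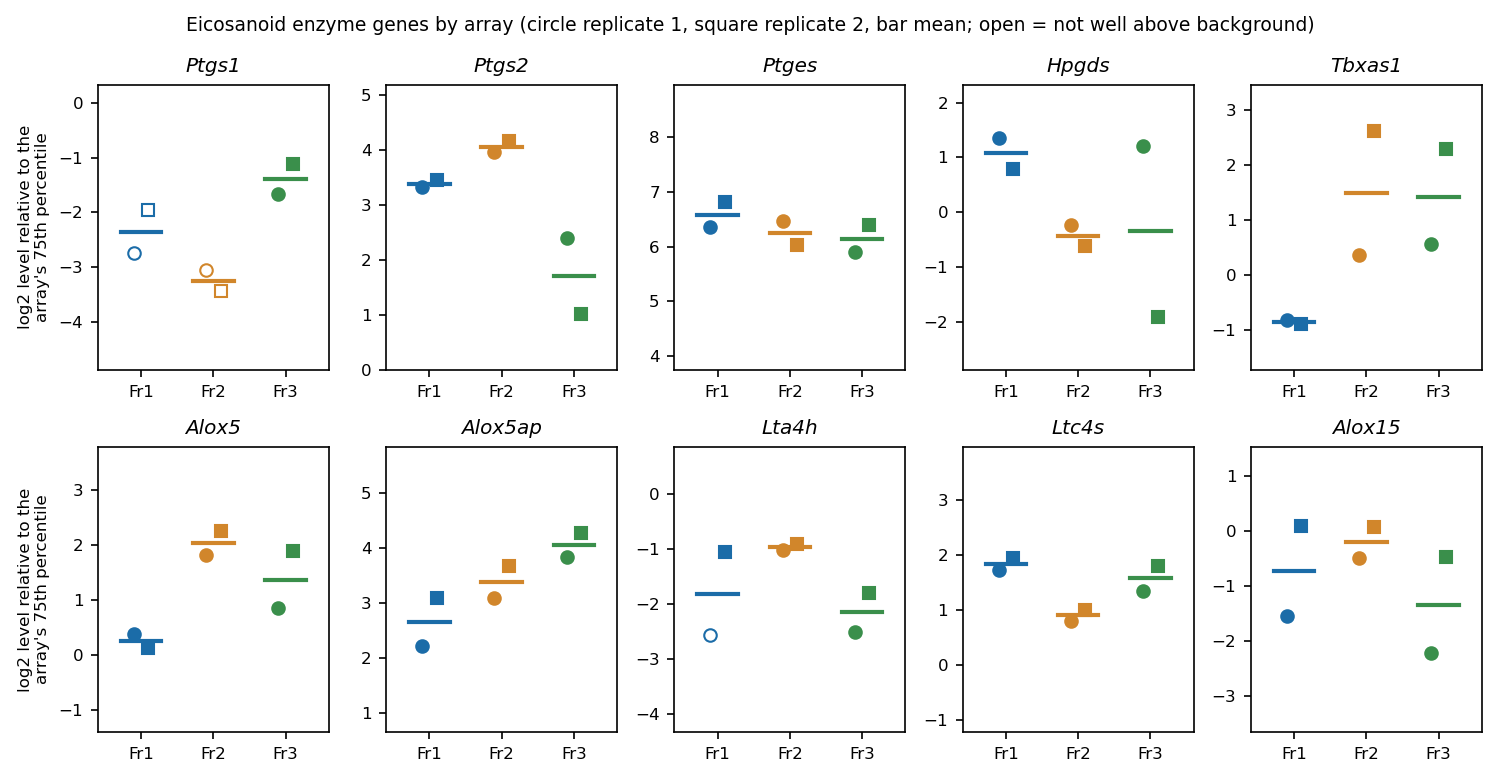
Level of each enzyme gene (vertical axis, log2 minus the 75th percentile of the array, spanning the same range in each panel) in Fr1, Fr2 and Fr3. Circles are replicate 1, squares replicate 2, bars the mean of the 2 arrays, and open symbols are not well above background. Ptgs2 is lowest and Ptgs1 highest in Fr3, and the Alox5 arrays of Fr1 lie below all others.

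At an unadjusted p under 0.05 in limma, 2 of the 10 members differed between Fr1 and Fr3, against 8.12% of all genes. Of these Ptgs2 had the higher level in Fr1 (2.78% of all genes) and Tbxas1 in Fr3 (5.34%). Between Fr1 and Fr2 there were also 2, Alox5 and Tbxas1, against 9.79%; both had the higher level in Fr2 (6.46%) and 0 members in Fr1 (3.33%). Between Fr2 and Fr3 there were 2, against 8.92%: Ptgs2 with the higher level in Fr2 (4.83%) and Ptgs1 in Fr3 (4.08%). In the F-test 2 members, Ptgs1 and Ptgs2, lay under that p, against 10% of all genes. Ptgs1 entered the tests through Fr3 alone, the fraction where it is high, so its place in these counts is no independent support.

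The arrays of Fr1 and Fr3 did not overlap for 5 members, against 35.7% of all genes. Fr1 was above for 1 (13.7% of all genes) and Fr3 for 4 (21.9%). Fr1 and Fr2 did not overlap for 7 members, against 44.8%, with Fr1 above for 3 (22.5%) and Fr2 for 4 (22.3%). Fr2 and Fr3 did not overlap for 5, against 42.1%, with Fr2 above for 2 (19.5%) and Fr3 for 3 (22.7%). The median difference of the members was 0.30 for Fr1 minus Fr3, −0.60 for Fr1 minus Fr2 and 0.09 for Fr2 minus Fr3, where the medians of all genes were −0.05, 0.03 and −0.08.

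Ptgs2, the inducible cyclooxygenase, had the smallest adjusted p of the set. It read 3.32 and 3.46 in Fr1, 3.97 and 4.17 in Fr2, and 2.39 and 1.02 in Fr3. No fraction overlapped another: both Fr2 arrays were the brightest and both Fr3 arrays the dimmest. Fr2 minus Fr3 was 2.36 ± 0.64 (SE), a 5.12-fold difference with a 95% interval of 0.84 to 3.88 on the log2 scale (limma, adjusted p = 0.333). Fr1 minus Fr3 was 1.68 ± 0.64 (adjusted p = 0.569), a comparison within one slide, and Fr1 minus Fr2 was −0.67 ± 0.64 (adjusted p = 0.770), with an interval of −2.19 to 0.85. The dimmest value came from the second Fr3 array. For the Ptgs2 probe, with 33.3% T, replicate 2 minus replicate 1 was −1.37 in Fr3, where all probes with 30% to 35% T had a median of 0.23 and a 10th percentile of −1.82. Without that array Fr2 minus Fr3 was 1.67 and stayed under the unadjusted threshold, while Fr1 minus Fr3 was 0.997 and did not. Fr1 minus Fr3 also missed that threshold without either Fr1 array (1.75 and 1.62), and at 1.68 without either Fr2 array or with only the arrays of Fr1 and Fr3.

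Ptgs1, the constitutive cyclooxygenase, ran the other way. It was well above background only in Fr3, at −1.67 and −1.12. The Fr1 arrays read −2.74 and −1.96 and the Fr2 arrays −3.06 and −3.42, all not well above background. By the means of 2 arrays, Fr3 was at least 2.93-fold above Fr2 and at least 1.73-fold above Fr1. Each bound uses, per array of the dim fraction, the lowest signal of any probe well above background there, or this probe's signal if higher. The bounds hold no replicate error, and Ptgs1 entered the tests through Fr3 alone. The fitted difference, Fr2 minus Fr3, was −1.84 ± 0.58 (adjusted p = 0.422), and Fr1 minus Fr3 was −0.95 ± 0.58 (adjusted p = 0.639, 95% interval −2.35 to 0.44). With normexp background correction and an offset of 50 the former was −0.20 and no longer under the unadjusted threshold, nor was it without the second Fr2 array (−1.66) or the second Fr3 array (−1.57). Fr1 minus Fr3 was −0.10 with normexp. A second Ptgs1 probe, on another transcript, was well above background on 1 array only, at −1.34, and entered no test.

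Of the 3 terminal synthases among the members, Tbxas1 had the largest mean difference. It encodes thromboxane synthase and was at −0.82 and −0.89 in Fr1, 0.37 and 2.63 in Fr2, and 0.56 and 2.29 in Fr3. Both Fr1 arrays lay below all others, while Fr2 and Fr3 overlapped throughout. Fr1 minus Fr3 was −2.28 ± 0.93, a 4.86-fold difference (adjusted p = 0.600), and Fr1 minus Fr2 was −2.36 ± 0.93, a 5.12-fold difference (adjusted p = 0.497). The intervals, −4.50 to −0.06 and −4.57 to −0.14, were wide, and the replicates of Fr2 and of Fr3 differed by 2.26 and 1.73 on the log2 scale. Without the second Fr2 array the Fr1 minus Fr2 value was −1.23, and without the second Fr3 array the Fr1 minus Fr3 value was −1.42, neither under the unadjusted threshold. Both also missed it with normexp (−1.16 and −1.03) and without either Fr1 array (−2.39 and −2.32, and −2.31 and −2.25), and Fr1 minus Fr3 with quantile normalization (−2.24). The Tbxas1 probe tested (chromosome 6, 39034356 to 39034415, plus strand) holds 25% T, a class whose median replicate difference in Fr3 was 0.48. Another 2 Tbxas1 probes, on other transcripts, were well above background on 1 array each.

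Hpgds makes prostaglandin D2 in haematopoietic cells, and its probes disagreed. The brighter, T-rich one was at 1.35 and 0.80 in Fr1, −0.23 and −0.62 in Fr2, and 1.20 and −1.90 in Fr3. Fr1 lay above Fr2 without overlap (1.50 ± 1.01, adjusted p = 0.657), and Fr3 overlapped both. Its replicate difference in Fr3 was −3.10, and with 43.3% T it belongs to the class whose median there was −1.39. The other Hpgds probe, with 30% T, was at −1.04 and −0.43 in Fr1, −0.88 and −3.36 in Fr2, and −0.51 and −0.68 in Fr3, so its Fr3 arrays lay close together. The 2 probes had opposite signs for Fr1 minus Fr3, 1.42 ± 1.01 against −0.15 ± 0.87, and the same signs in the comparisons with Fr2. On the brighter probe Fr2 minus Fr3 was −0.08 ± 1.01 and turned to 0.030 with array medians in place of the 75th percentile, to 0.12 without the second Fr2 array and to 1.47 without the first Fr3 array. No order of Hpgds between Fr3 and another fraction is given from these probes.

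Ptges, the inducible prostaglandin E synthase, was at 6.35 and 6.80 in Fr1, 6.46 and 6.03 in Fr2, and 5.89 and 6.39 in Fr3. All fractions overlapped. Fr1 minus Fr3 was 0.44 (95% interval −0.89 to 1.76), Fr1 minus Fr2 was 0.33 (−0.99 to 1.66) and Fr2 minus Fr3 was 0.10 (−1.22 to 1.43), so differences inside these intervals remain possible. These values rest on the probe farthest downstream. The other 2 Ptges probes were well above background on 0 of 6 arrays, so the 3 probes disagree on whether the transcript was detected, and Ptges is reported as uncertain.

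**Figure D2:**
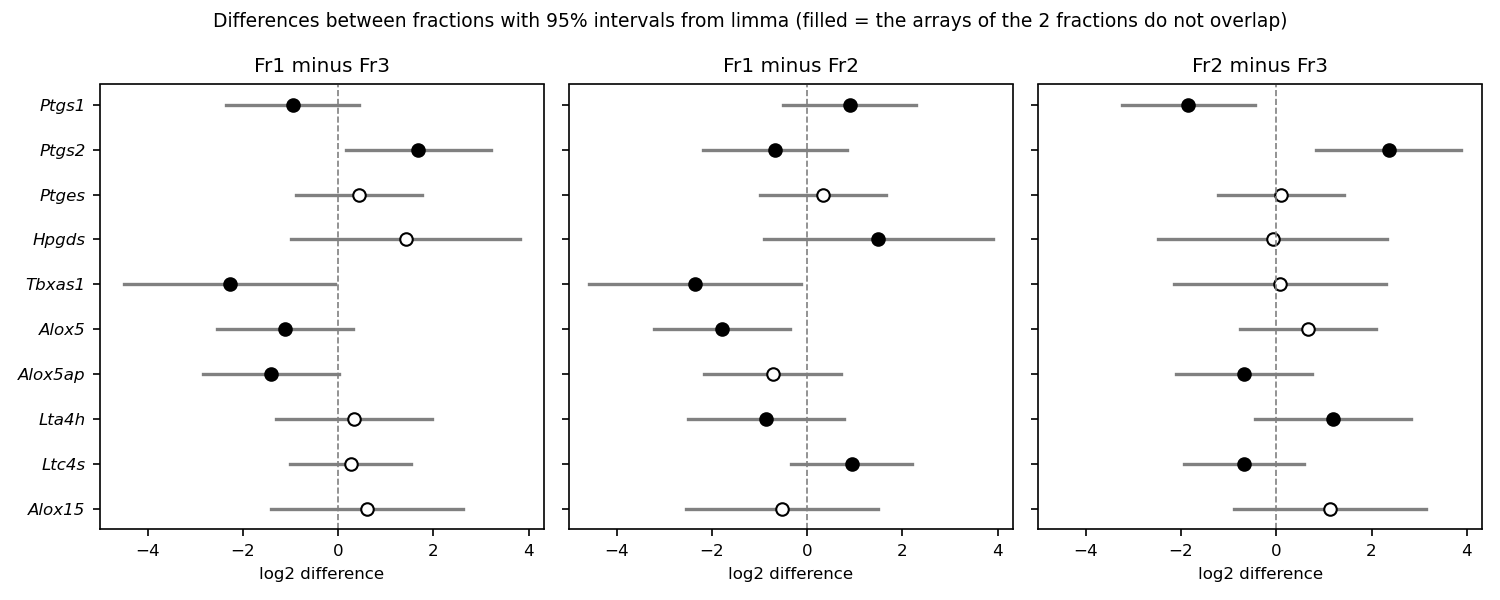
Log2 differences between fractions from limma (horizontal axis) for each enzyme gene, with 95% intervals as lines. Filled points mark genes whose arrays did not overlap between the 2 fractions. Ptgs2 and Ptgs1 lie on opposite sides of 0 for Fr2 minus Fr3, at 2.36 and −1.84.

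In the leukotriene branch the first step takes 5-lipoxygenase and FLAP. Alox5, the 5-lipoxygenase, was at 0.37 and 0.12 in Fr1, 1.82 and 2.25 in Fr2, and 0.85 and 1.88 in Fr3. Both Fr1 arrays lay below the others, and Fr2 and Fr3 overlapped. Fr1 minus Fr2 was −1.79 ± 0.60, a 3.45-fold difference with an interval of −3.22 to −0.36 (adjusted p = 0.444). It was −1.05 ± 0.23 with normexp background correction and stayed under the unadjusted threshold. Without the first Fr1, second Fr1 or second Fr2 array it was −1.91, −1.66 and −1.57, and no longer under that threshold. Fr1 minus Fr3 was −1.12 ± 0.60 (adjusted p = 0.625), and Fr2 minus Fr3 was 0.67 ± 0.60 (adjusted p = 0.696). Its probe (chromosome 6, 116360326 to 116360385, minus strand) holds 36.7% T. Its replicate difference in Fr3 was 1.03, where probes of 35% to 40% T had a median of −0.21.

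Alox5ap encodes FLAP, the membrane protein that hands arachidonic acid to 5-lipoxygenase. Its brighter probe (chromosome 5, 150099347 to 150099406, plus strand) was at 2.20 and 3.09 in Fr1, 3.08 and 3.66 in Fr2, and 3.82 and 4.27 in Fr3. The Fr3 arrays lay above all others, and Fr1 and Fr2 overlapped narrowly. Fr1 minus Fr3 was −1.40 ± 0.60, a 2.64-fold difference (adjusted p = 0.618), and Fr2 minus Fr3 was −0.68 ± 0.60 (adjusted p = 0.693). A second probe, starting at 150099572, gave no such order: it was at 0.80 and −0.10 in Fr1, 0.69 and 1.85 in Fr2, and 0.30 and 0.16 in Fr3. With the mean of both probes Fr1 minus Fr3 was −0.64, and Fr2 minus Fr3 turned to 0.18. The place of Fr3 in the order of Alox5ap levels thus depends on the probe.

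Neither enzyme that uses leukotriene A4, Lta4h or Ltc4s, came under the unadjusted threshold in the fit reported. Among the alternatives, Ltc4s did so for Fr1 minus Fr2 with normexp (0.44), and Lta4h for Fr2 minus Fr3. Lta4h, which makes leukotriene B4, was at −2.57 and −1.06 in Fr1, −1.01 and −0.90 in Fr2, and −2.50 and −1.79 in Fr3. Its Fr2 arrays lay above all others: Fr2 minus Fr3 was 1.19 ± 0.69 (adjusted p = 0.609) and Fr1 minus Fr2 was −0.86 ± 0.69 (adjusted p = 0.720). A second Lta4h probe had the same 3 signs; it was not well above background in Fr3, and Fr2 was at least 1.17-fold above Fr3. Ltc4s, which makes leukotriene C4, was at 1.74 and 1.94 in Fr1, 0.80 and 1.00 in Fr2, and 1.36 and 1.80 in Fr3. Here the Fr2 arrays lay below all others, with Fr1 minus Fr2 at 0.94 ± 0.53 (adjusted p = 0.607) and Fr2 minus Fr3 at −0.68 ± 0.53 (adjusted p = 0.658). Fr2 was thus at opposite ends for the 2 enzymes, a contrast seen in the values that has no test of its own.

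Alox15, the 12/15-lipoxygenase of mouse macrophages and eosinophils, was at −1.56 and 0.09 in Fr1, −0.49 and 0.07 in Fr2, and −2.22 and −0.47 in Fr3. Each pair of fractions overlapped, and the replicates of Fr1 and Fr3 lay 1.64 and 1.75 apart. The differences were 0.61 ± 0.84 for Fr1 minus Fr3, −0.53 ± 0.84 for Fr1 minus Fr2 and 1.14 ± 0.84 for Fr2 minus Fr3 (adjusted p = 0.649 for the last). The interval of the last, −0.88 to 3.15, holds both 0 and a several-fold change.

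**Figure D3:**
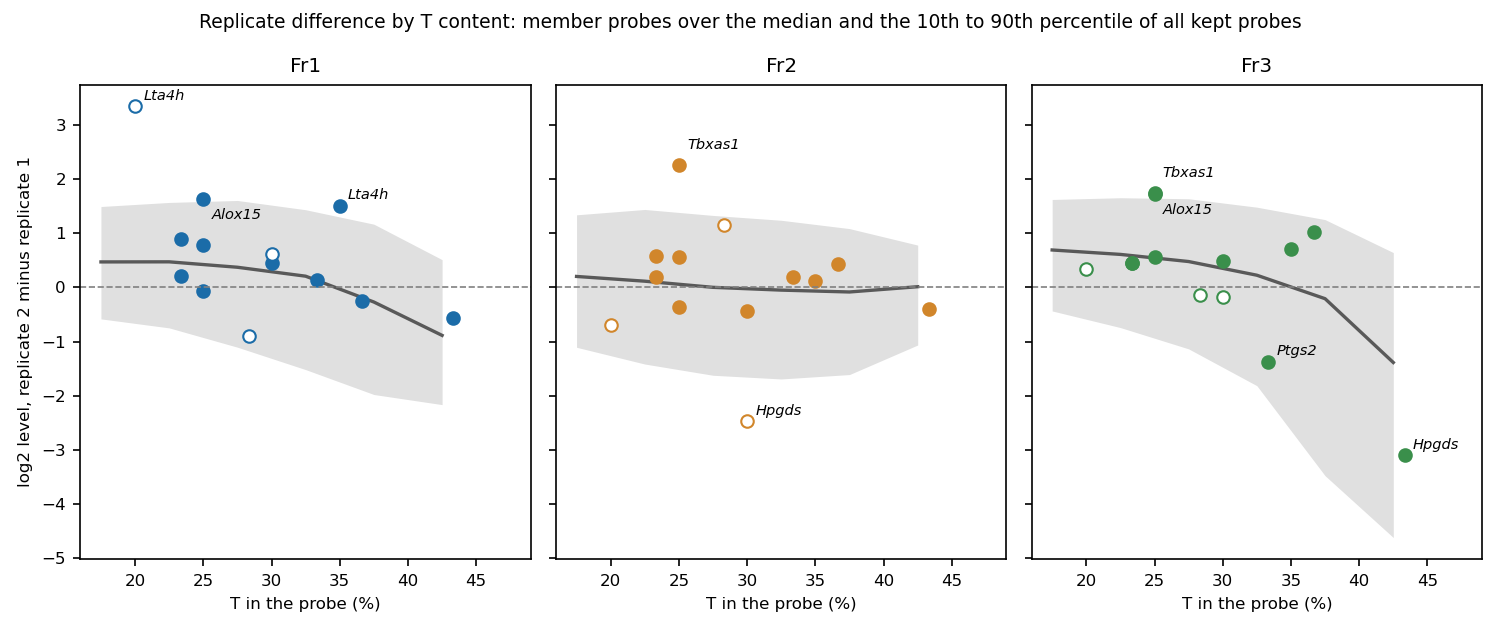
Log2 level of replicate 2 minus replicate 1 (vertical axis) against the percentage of T in the probe (horizontal axis), for the 13 enzyme probes well above background on both arrays of a fraction; filled points are the probes tested, open points the others. The line is the median and the band the 10th to 90th percentile of all such probes by class of T content. In Fr3 the T-rich Hpgds probe lies at −3.10 and Ptgs2 at −1.37, and the line falls from 0.69 to −1.39.

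The rest of the pathway was read from lists of upstream enzymes, other synthases, inactivating enzymes, transporters and receptors, and 0 genes of these lists passed at an adjusted p under 0.05. Among genes of arachidonate release and remodelling, 10 of 17 were tested. By unadjusted p under 0.05, 3 had their higher level in Fr2 against Fr1 (6.46% of all genes) and 0 in Fr1 (3.33%). Against Fr3, 2 were higher in Fr2 (4.83%) and 0 in Fr3 (4.08%), and between Fr1 and Fr3, 1 was higher in Fr3 (5.34%) and 0 in Fr1 (2.78%). The same shares of all genes apply to the other lists below. Lpcat2, which remodels lysophospholipids and makes platelet-activating factor, was at 3.02 and 3.08 in Fr1, 4.30 and 4.68 in Fr2, and 2.47 and 2.22 in Fr3. These fractions did not overlap, with Fr2 the brightest and Fr3 the dimmest (Fr2 minus Fr3 2.14 ± 0.53, adjusted p = 0.282). Pla2g7, which breaks down platelet-activating factor, was at 3.76 and 3.25, 5.03 and 6.28, and 4.09 and 3.59 in the same order of fractions, with Fr2 above the rest. Pla2g4c, a phospholipase A2, was not well above background in Fr1 and at −2.01 and −1.86 in Fr2, at least 1.25-fold above. It entered the tests through Fr2 alone, so its place in these counts is no independent support. Pla2g4c was also the 1 gene counted as higher in Fr3 than in Fr1. Its Fr3 arrays read −3.47 and −0.76, with only 1 well above background. Pla2g4a, the cytosolic phospholipase A2 that supplies much of the arachidonic acid, is named outside the rule for these lists. It was at 0.68 and 2.29, 1.24 and 2.21, and 0.30 and 0.93, and Fr1 overlapped both others.

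Of the other lipoxygenases 3 of 5 were tested; by unadjusted p 1 had the higher level in Fr2 against Fr1 (6.46% of all genes), 2 in Fr2 against Fr3 (4.83%), and 0 the other way (3.33% and 4.08%). Alox12e, an epidermal 12-lipoxygenase, was at −0.76 and 1.74 in Fr2 and not well above background on the 4 arrays of Fr1 and Fr3. Fr2 was at least 6.75-fold above Fr1 (adjusted p = 0.267) and at least 8.47-fold above Fr3 (adjusted p = 0.186). Alox12, the platelet-type 12-lipoxygenase, was at −2.33 and −0.23 in Fr2 and likewise dim elsewhere, with Fr2 at least 1.97-fold above Fr1 and at least 2.47-fold above Fr3. Alox12e and Alox12 entered the tests through Fr2 alone, the fraction where they are high. Their place in these counts is thus no independent support. Alox12b, of the skin barrier, overlapped in all comparisons. Of 8 epithelial markers 6 were tested, and 5 and 6 of them were well above background on the Fr2 arrays, 3 and 2 on the Fr1 arrays and 5 and 4 on the Fr3 arrays. Their summed signal, in units of the 75th percentile, was 2.59 and 1.83 in Fr1, 3.84 and 2.55 in Fr2, and 2.08 and 2.32 in Fr3; Krt5 was well above background on none. By unadjusted p 2 of the 6 tested, Krt14 and Perp, were higher in Fr2 against Fr1 (6.46% of all genes) and 0 in Fr1 (3.33%). Both were not well above background in Fr1, and Fr2 was at least 1.51-fold and at least 3.33-fold above it. Krt14 entered the tests through Fr2 alone. Between Fr2 and Fr3, 0 differed either way (4.83% and 4.08%), and Epcam overlapped in all comparisons. The part of epithelial RNA in the Alox12e signal was not tested.

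Other prostanoid synthases (6 of 8 tested) had 1 gene under the unadjusted threshold, Akr1b3, a prostaglandin F synthase. It was at 0.66 and 0.04 in Fr1, 1.18 and 0.89 in Fr2, and 1.50 and 1.86 in Fr3, without overlap. Ptges3, the cytosolic prostaglandin E synthase, lay between 1.73 and 2.79 on all arrays. Prxl2b, which makes prostaglandin F and prostamide, was at −4.08 and 0.19 in Fr1, too far apart to place. Of the other leukotriene enzymes 4 of 8 were tested, and 1 gene, Mgst1, was under the threshold in both comparisons with Fr2. This microsomal glutathione transferase, related to Ltc4s and FLAP, was at 1.16 and −0.82 in Fr1, 2.24 and 1.97 in Fr2, and 0.42 and −0.23 in Fr3, with Fr2 above the rest. Mgst3 read 3.09 and −2.33 on the Fr3 arrays, with 43.3% T in its probe as in the Hpgds one, and Ggt1, which trims leukotriene C4, was dim on the first Fr2 array.

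Among inactivating enzymes and transporters (10 of 11 tested) 1 gene, Ptgr1, was under the unadjusted threshold, with its lower level in Fr1 against both others. It encodes prostaglandin reductase, which also inactivates leukotriene B4. Its level was −1.33 and −3.06 in Fr1, 0.86 and −0.69 in Fr2, and 1.29 and 1.36 in Fr3, with no overlap and Fr3 the brightest, and the second Fr1 array was not well above background. Fr1 minus Fr3 was −3.52 ± 0.81 (adjusted p = 0.297). Slco2b1, an organic anion carrier, was at 2.86 and 2.69 in Fr1 and 4.91 and 3.85 in Fr3, and Abcc1, an export pump for leukotriene C4, at −1.25 and −0.18 in Fr1 and 0.12 and 1.18 in Fr3. Neither overlapped between Fr1 and Fr3 or came under the threshold. Hpgd, the main prostaglandin-degrading dehydrogenase, is named outside the rule; it was at −0.10 and −0.97 in Fr3 and dim on both Fr1 arrays, at least 3.30-fold below.

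Many receptor genes entered no test. Of 9 prostanoid receptor genes 4 were tested, and 0 came under the unadjusted threshold in any comparison. Tbxa2r, the thromboxane receptor, was well above background on both arrays only in Fr1, at −2.08 and −1.28. Ptger3 and Ptger1 overlapped in all comparisons. Ptger4, the EP4 receptor, named outside the rule, was at 4.03 and 4.21 in Fr1, 4.79 and 3.22 in Fr2, and 3.97 and 3.68 in Fr3. Of 8 leukotriene and lipoxin receptor genes 4 were tested, and 1, Fpr2, was under the threshold in both comparisons with Fr2. Fpr2, a formyl peptide receptor that also binds lipoxin A4, was at 1.38 and 2.69 in Fr1, 4.22 and 4.26 in Fr2, and 1.91 and 1.92 in Fr3. Fr1 minus Fr2 was −2.20 ± 0.62 (adjusted p = 0.384) and Fr2 minus Fr3 was 2.33 ± 0.62 (adjusted p = 0.333). Ltb4r1, the high-affinity leukotriene B4 receptor, was at −1.89 and −0.56 in Fr2 and not well above background in Fr1, at least 2.05-fold below. Cmklr1, a receptor for chemerin and resolvin E1, lay between 5.31 and 6.32 on all arrays.

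**Figure D4:**
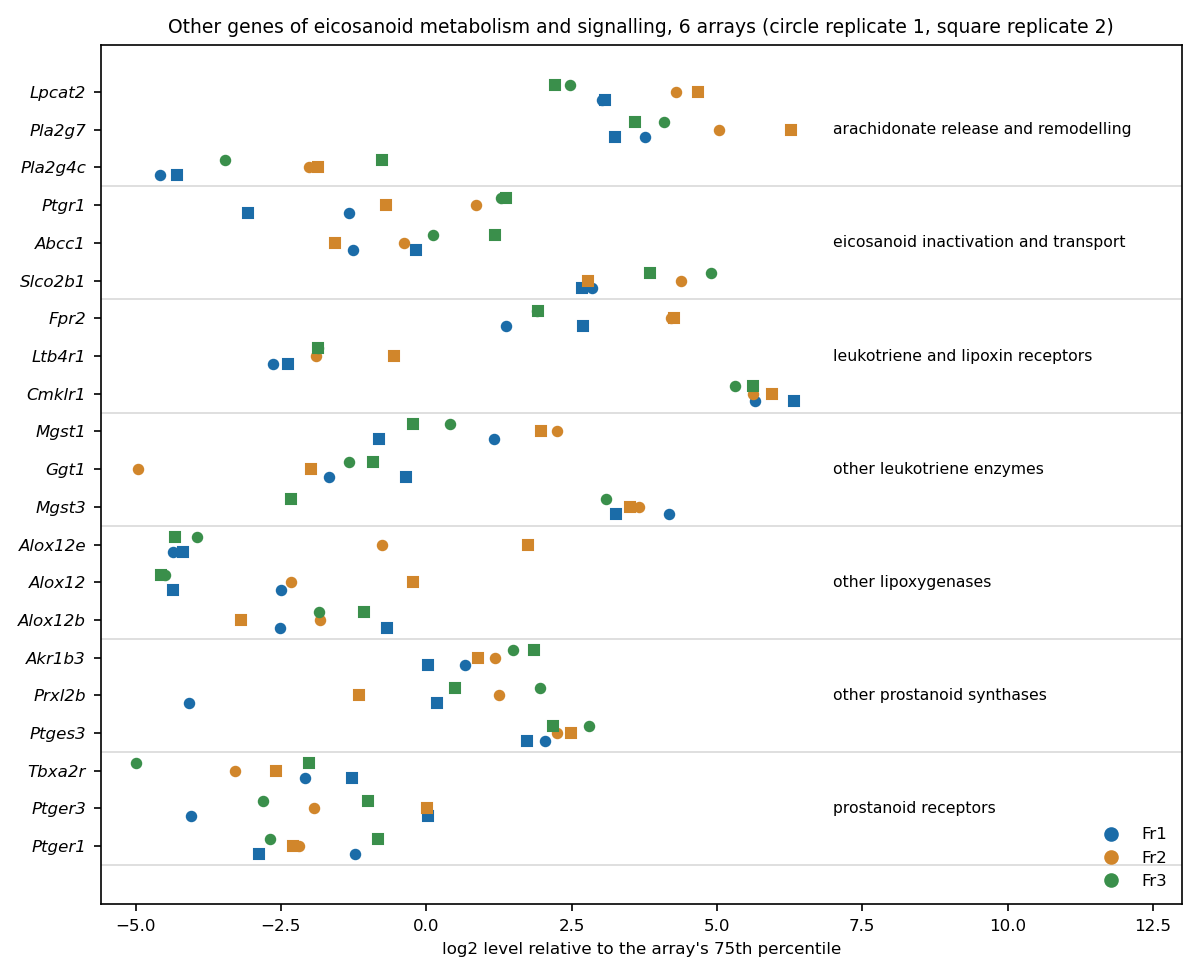
Levels (horizontal axis, log2 minus the 75th percentile of the array) of up to 3 tested genes from each other pathway list, those with the smallest F-test p, on the 6 arrays. Circles are replicate 1 and squares replicate 2. Alox12e, Fpr2, Pla2g7 and Lpcat2 have both Fr2 arrays to the right of all others.

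Markers of cells known to make eicosanoids are given beside these levels; 0 of the markers in these lists passed at an adjusted p under 0.05 (limma) in any comparison, and those named were chosen after their values were seen. The summed signal of 12 tested neutrophil markers, in units of the 75th percentile, was 241 and 297 in Fr1, 635 and 658 in Fr2, and 140 and 140 in Fr3, the same order as Ptgs2. Of these markers 11 and 10 were well above background in Fr1, 12 and 12 in Fr2, and 11 and 9 in Fr3, while Ly6g was so on 1 array. S100a9 (6.70 and 6.82, 8.55 and 8.59, and 5.45 and 4.27) and Csf3r (6.95 and 7.40, 7.11 and 6.75, and 6.47 and 6.84) made up most of the sum on each array, and Csf3r was not highest in Fr2. By unadjusted p, 7 of the 12 were higher in Fr2 against Fr1 (6.46% of all genes) and 9 in Fr2 against Fr3 (4.83%). Between Fr1 and Fr3, 4 were higher in Fr1 (2.78%) and 1, Ltf, in Fr3 (5.34%). Ltf, also among the 7 and the 9, entered the tests through Fr2 alone, so its place there is no independent support. The sum of 9 eosinophil markers was 20.5 and 22.5 in Fr1, 80.6 and 158 in Fr2, and 8.13 and 14.1 in Fr3. For 7 monocyte markers it was 35.8 and 15.2, 85.5 and 110, and 6.14 and 12.6. These 3 sums were largest in Fr2 on both arrays.

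Macrophage markers (11 of 12 tested) summed to 92.7 and 89.8 in Fr1, 315 and 152 in Fr2, and 698 and 521 in Fr3. The means of the brighter Alox5ap probe had this order, and those of its second probe did not. F13a1, Csf1r and Cd163 made up most of the Fr3 sum, which also holds Mrc1, the sort marker of Fr3. Not all markers had this order: Adgre1 was highest in Fr2 (5.94 and 5.97, against 5.46 and 5.32 in Fr3). C1qb was lowest in Fr2, at 1.48 and 0.40. Dendritic cell markers (9 of 10 tested) summed to 170 and 203, 243 and 96.2, and 87.9 and 209, with overlap in all comparisons. H2-Ab1, between 6.32 and 7.78, made up most of that sum on each array. By unadjusted p, 3 dendritic cell markers were higher in Fr1 than in Fr3 (2.78% of all genes) and 0 in Fr3 (5.34%). These were Ccr7, Itgax, whose protein CD11c Fr1 was sorted on, and Clec9a, which entered the tests through Fr1 alone. Flt3, Dpp4, H2-Aa, H2-Ab1 and Xcr1 overlapped between Fr1 and Fr3. Mast cell and basophil markers summed to 12.7 and 22.8, 14.8 and 42.6, and 10.4 and 4.60. Of 13 of these, 4 were tested. Hdc, Tpsb2 and Kit were well above background on all 6 arrays: Hdc was at 2.58 and 3.97 in Fr1, 3.25 and 4.96 in Fr2, and 2.11 and 1.33 in Fr3, Kit at 0.01 and 0.59, −0.80 and 0.60, and −1.52 and −1.58, both lowest in Fr3, and Tpsb2 at −0.14 and 1.68, 0.58 and 2.85, and 0.94 and 0.74. Gata2 was so on 5 arrays. Cpa3, Tpsab1, Fcer1a and Mrgprb2 were well above background on no array. Platelet markers, of interest for Ptgs1 and Tbxas1, summed to 22.9 and 15.3, 14.5 and 16.5, and 71.8 and 48.9. Pf4, at 5.76 and 4.95, made up most of the Fr3 sum, and Gp9 was well above background on no array. Gp1ba had its highest mean in Fr1, and Itga2b, Itgb3 and Treml1 had theirs in Fr3. Ppbp and Gp6 overlapped in all comparisons. The part of any of these cell types in the enzyme levels was not tested.

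The genes whose level followed a member most closely across the 6 arrays were found by the root mean square difference after centring each gene on its own mean, among 12921 candidates. For Ptgs2 they were Sec14l2 (0.21 on the log2 scale) and Ifit1bl2 (0.24), where Ptgs2 itself varied by 1.07, and 72 genes lay within 0.5. For Alox5 they were Gadd45g (0.14) and Kpna2 (0.16), for Alox5ap Cpsf7 (0.13) and Iars2 (0.14), and for Tbxas1 Pdcl (0.42) and Ube2s (0.43), with 8 genes within 0.5. For Ptgs1 they were Erdr1 (0.16) and Mrpl22 (0.16), for Hpgds Igsf11 (0.21) and Cd209b (0.27), and for Alox15 Pnpla7 (0.13) and Oxct2b (0.15). Lta4h was closest to Itln1 (0.15) and Bspry (0.17), Ltc4s to Plekha6 (0.06) and Aldh3b3 (0.06), and Ptges to Csf3r (0.08) and Plaat3 (0.09). Ltc4s and Ptges varied little, by 0.42 and 0.30, and 2569 and 2578 genes lay within 0.5 of them. Over 6 arrays such likeness is a description only.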

How the data were processed

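The authors scanned 6 one-colour Cy3 arrays and deposited intensity values per spot from Agilent Feature Extraction (version 11.5.1.1, per the file headers), background-subtracted by that program. They also deposited a table of log2 values, with medians between −2.43 and −2.25; its correlation across probes with the scaled scanner values was at least 0.9999, so its scale is log2 relative to the 75th percentile, and it served as an alternative. Spots of a probe were averaged on the linear scale without outlier-flagged spots (4 probes left out), and log2 values were set relative to each array's 75th percentile over non-control spots. Probes well above background on both arrays of a fraction were kept (27867), and the brightest stood for a gene (20817 genes). Names were updated through the RefSeq table of GRCm38.p6 (32994 probes by accession, 10224 by symbol, 520 by synonym, 12867 left as in the files). Coordinates and probe sequences are the files' own (mm9). The 3 group means were fitted over 6 arrays with limma (version 3.58.1; R 4.3.3; tables in Python 3.11.15), with Benjamini-Hochberg adjustment over all genes, two-sided, after the fit had been tested on simulated data. The number of arrays limits the precision. Named are all members, up to 3 genes of each pathway list by F-test p, and 2 like genes per member. Sort and cell type markers are named outside this rule and were chosen after their values were seen; other such names are marked. Members and lists were chosen with earlier results of these data known. Deviations of same-numbered arrays from their group means correlated across genes with r = 0.12 (Fr1 and Fr2), 0.43 (Fr1 and Fr3) and 0.05 (Fr2 and Fr3). The numbers were not taken as pairs in the fit reported, though the value for Fr1 and Fr3 is not small. A fit with a replicate block was run as an alternative. Alternatives were other background corrections, scalings, filters, probe rules and fits, and each array left out.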

Additional observations from a re-analysis of the deposited data

Results flagged for a closer look

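Of the 5 enzyme probes outside the tests, 3 gave signal well above background on 1 array each. A Ptgs1 probe was at −1.34 on the second Fr3 array, and 2 Tbxas1 probes were at −1.96 and −0.79 on the second Fr2 array, where the tested Tbxas1 probe was also brightest. Of all 28734 probes left out, 8912 were above background on some array. Groups of 2 arrays were not searched for outlying samples.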

How the results depend on the processing

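No member was called at an adjusted p under 0.05 by limma under any of 18 alternatives, and 22 of 30 differences kept their direction in each alternative that holds their probe; Alox5 and Ptgs2 had no probe with T-rich probes left out, and Lta4h and Ptgs1 none with probes required above background on each array, so 17 were run for these. Ptgs2 kept an unadjusted p under 0.05 for Fr2 minus Fr3 in each alternative that holds its probe. Several alternatives could not turn a direction, because they leave the means of the compared fractions as they are. These were the variance trend, the replicate block, the fits of 2 fractions, probes tested alone, and an array of the third fraction left out. The share of all genes that kept their direction was not computed. The replicate block gave 0 called genes in each comparison and in the F-test, and 3 members under the unadjusted p for Fr1 against Fr3 (2 without it). Called genes for Fr1 against Fr3, Fr1 against Fr2, Fr2 against Fr3 and the F-test were 1, 0, 1 and 1 in the fit reported. They were 12, 3, 56 and 43 with probes over 30% T left out, 8, 1, 11 and 22 with a variance trend, 0, 0, 7 and 3 with normexp, and 1, 0, 9 and 3 with probes required above background on each array. With every kept probe tested alone or no filter they were 0, 0, 1 and 0, and with quantile normalization or array medians 1, 0, 1 and 0. With only the arrays of the compared fractions they were 0, 13 and 0. Leaving out an array gave 0 to 1476, 0 to 13, 0 to 987 and 0 to 1152; 1476, 987 and 1152 came without the first Fr3 array, and 13 without either Fr3 array. At the unadjusted p the counts over all 20817 genes were 1690, 2038 and 1856 in the fit reported. They were 1854, 2361 and 2035 with normexp, 1737, 2001 and 1765 with quantile normalization, and 1704, 2202 and 1905 with array medians. Such counts are not given for the other settings, so shifts in the member counts are not read as changes of the members. Members under the unadjusted p, 2 in each comparison, were 3, 3 and 1 with normexp and 3, 2 and 1 with probes above background on each array. For Fr1 against Fr3 they were 1 with quantile normalization or only its arrays, and 3 with array medians, no filter or the variance trend. For Fr1 against Fr2 they were 3 with only its arrays and 1 with T-rich probes left out. Leaving out an array gave 0 to 3, 0 to 3 and 1 to 2. Directions turned for Hpgds, Fr1 minus Fr3, with T-rich probes left out (−0.15), for Hpgds, Fr2 minus Fr3, with array medians (0.030) and for Alox5ap, Fr2 minus Fr3, with the mean of its probes (0.18). Leaving out an array also turned differences, which then ranged, for Fr1 minus Fr3, from −0.26 to 1.49 (Alox15), −0.13 to 2.97 (Hpgds) and −0.42 to 1.09 (Lta4h). For Fr1 minus Fr2 the range was −1.35 to 0.29 (Alox15), and for Fr2 minus Fr3 −1.62 to 1.47 (Hpgds), −0.14 to 0.35 (Ptges) and −1.05 to 1.20 (Tbxas1). The causes were not tested. The slide could not be fitted as a block, since Fr2 alone lay on its slide.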
